A study of Mus musculus with 10 samples.

Results

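The Reg genes of the mouse were followed in isolated pancreatic islets. The members were all probe sets whose platform annotation carries the symbol Reg1, Reg2, Reg3a, Reg3b, Reg3d, Reg3g or Reg4. These were 8 probe sets for 7 genes, out of 45037 probe sets on the array without its controls, and Reg3b was the gene with 2 of them. The islets came from female mice aged 5 weeks of a strain labelled C57 on a 129 background, 5 of them heterozygous for Men1 and the other 5 their wildtype littermates. No treatment is named, and the labels do not describe the mutant Men1 allele. About 100 islets of each mouse were pooled into 1 RNA sample and run on 1 array, so that each replicate is a separate mouse. The family was selected on its measured values, namely its wide and shared variation between these mice, so ranges and correlations among its members are given as descriptions without a test.

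Reg genes encode small secreted proteins of the C-type lectin fold. In the pancreas Reg1 and Reg2 are made by acinar cells, which secrete the digestive enzymes, and their proteins are also known as pancreatic stone protein. The Reg3 genes include Reg3b, known as pancreatitis-associated protein because acinar cells raise it when the pancreas is injured, and Reg3g, an antibacterial lectin best known from the gut. Interleukin-6 type cytokines acting through the transcription factor STAT3 are known inducers of Reg3 genes, and Extl3 has been described as a receptor for Reg proteins.

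In the RefSeq genes of GRCm38.p6, 6 of the 7 members follow one another on chromosome 6, in the order Reg3b, Reg3d, Reg3a, Reg2, Reg1 and Reg3g, with 1 annotated pseudogene before Reg3g, while Reg4 lies on chromosome 3. The 250 bases before the annotated start of the 6 clustered genes are shown, because 5 of these genes varied together between mice and Reg1 varied far less. They are RefSeq sequences of GRCm38.p6, read 5′ to 3′ along each gene, at chr6:78370635-78370884 on the plus strand for Reg3b, chr6:78468875-78469124 on the minus strand for Reg3g, chr6:78380459-78380708 on the plus strand for Reg3a, chr6:78378866-78379115 on the minus strand for Reg3d, chr6:78404905-78405154 on the plus strand for Reg2 and chr6:78425733-78425982 on the plus strand for Reg1. Capitals mark, on either strand, the TATA box letters TATAAA, the letters CACCTG (the E box found in sites of the acinar factor PTF1) and the letters TGGGAA (the core bound by its RBPJ-type subunit).
Reg3b: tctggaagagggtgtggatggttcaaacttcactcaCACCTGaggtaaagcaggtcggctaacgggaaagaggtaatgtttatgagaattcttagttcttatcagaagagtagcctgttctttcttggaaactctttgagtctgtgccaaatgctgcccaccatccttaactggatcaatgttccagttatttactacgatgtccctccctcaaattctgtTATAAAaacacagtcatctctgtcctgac
Reg3g: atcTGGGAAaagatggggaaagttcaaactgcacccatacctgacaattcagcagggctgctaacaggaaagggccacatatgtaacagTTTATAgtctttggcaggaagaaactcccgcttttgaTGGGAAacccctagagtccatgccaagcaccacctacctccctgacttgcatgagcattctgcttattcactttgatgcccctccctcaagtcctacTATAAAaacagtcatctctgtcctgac
Reg3a: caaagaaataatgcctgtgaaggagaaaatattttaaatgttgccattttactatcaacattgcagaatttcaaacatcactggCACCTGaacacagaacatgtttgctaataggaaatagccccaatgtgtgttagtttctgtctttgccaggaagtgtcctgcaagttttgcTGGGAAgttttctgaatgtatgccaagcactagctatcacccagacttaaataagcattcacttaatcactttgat
Reg3d: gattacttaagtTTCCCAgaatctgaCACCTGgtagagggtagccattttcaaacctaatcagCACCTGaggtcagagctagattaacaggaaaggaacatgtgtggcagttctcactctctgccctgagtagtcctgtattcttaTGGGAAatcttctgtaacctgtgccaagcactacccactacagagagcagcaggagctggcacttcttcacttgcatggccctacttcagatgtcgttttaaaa
Reg2: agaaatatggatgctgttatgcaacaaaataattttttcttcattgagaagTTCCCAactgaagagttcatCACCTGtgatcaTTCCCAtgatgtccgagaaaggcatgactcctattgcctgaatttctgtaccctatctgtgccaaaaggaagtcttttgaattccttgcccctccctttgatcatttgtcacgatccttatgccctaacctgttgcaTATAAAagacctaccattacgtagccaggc
Reg1: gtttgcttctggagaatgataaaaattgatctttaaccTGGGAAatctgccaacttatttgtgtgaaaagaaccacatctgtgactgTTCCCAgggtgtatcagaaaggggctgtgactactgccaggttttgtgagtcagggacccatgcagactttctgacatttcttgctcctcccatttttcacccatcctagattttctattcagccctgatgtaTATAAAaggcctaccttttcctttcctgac

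TATAAA stood 30 bases upstream of the start in Reg1 and Reg2, 29 bases upstream in Reg3b and 27 bases upstream in Reg3g, and in neither Reg3a nor Reg3d. Reg3g held it a second time on the opposite strand. Over both strands it was found in 4 of the 7 members and in 12.4% of 32851 RefSeq promoter windows of the same length. CACCTG was found in 5 of 7 members (Reg2, Reg3a, Reg3b, Reg3d and Reg4) against 17.2% of all windows. TGGGAA was also found in 5 of 7, Reg1, Reg2, Reg3a, Reg3d and Reg3g, against 21.6%. The STAT letters TTCNNNGAA, not marked, were found in Reg3b and Reg3d and in 7.02% of all windows, and in Reg3d this match overlapped a TGGGAA match on the opposite strand. A match is a string of letters and not a measured binding site. The windows closest in sequence were those of Reg3b and Reg3g, identical at 68.9% of aligned positions and sharing an unbroken run of 20 bases, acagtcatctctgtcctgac, just after the TATA box of Reg3b. All other pairs lay between 47.8% and 58.5%.

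The deposited values are log2 values made with GCRMA, 1 per probe set and array. Array medians lay between 3.28 and 3.40, the highest value on any array was 17.58, and r between any 2 arrays, across probe sets, was 0.962 to 0.988. Probe sets with 5 or more of the 10 arrays above 4 (log2) were kept, which left 18567 probe sets. Of the 8 Reg probe sets 7 were kept, and these lay above 4 on all 10 arrays, so none entered through 1 genotype. The tissue label was checked against islet hormones: wildtype and heterozygous means were 16.28 ± 0.073 and 16.23 ± 0.024 for Ins2 and 16.40 ± 0.065 and 16.31 ± 0.069 for Gcg (log2, SD, n = 5). Acinar transcripts were also high, with a mean over 29 genes of 14.63 ± 0.21 and 14.59 ± 0.37. In a preparation of mixed cells, more cells of a type and more RNA per cell cannot be told apart. Men1, the targeted gene, had wildtype and heterozygous means of 6.89 ± 0.39 and 6.42 ± 0.30 on its 1 probe set kept. That difference of -0.47 (SE 0.20) did not pass the test over all probe sets (limma adjusted p = 0.9999).

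Reg1, which encodes pancreatic stone protein, was nearly level across mice. Its log2 values were 16.17, 16.25, 16.20, 16.30 and 16.20 in wildtype replicates 1 to 5 and 16.20, 16.24, 16.24, 16.13 and 16.05 in heterozygous replicates 1 to 5. The whole range was 0.25, wider than in 2.46% of kept probe sets. The values lie close to the top of the measured scale, where differences can be compressed. Whether this holds for Reg1 was not tested.

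Reg2, its close relative, varied more. Wildtype replicates 1 to 5 stood at 14.01, 15.60, 14.32, 15.59 and 15.28, and heterozygous replicates 1 to 5 at 15.17, 15.40, 15.45, 14.85 and 14.67. Wildtype replicates 1 and 3 were the lowest of all mice, and the range of 1.59 was wider than in 90.2% of kept probe sets.

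Reg3a, a pancreatic member of the Reg3 group, showed the same 2 low mice on a wider scale. Its wildtype values were 9.83, 14.52, 10.18, 14.26 and 13.62, and its heterozygous values 13.18, 13.53, 13.15, 12.40 and 11.78. Wildtype replicates 2 and 4 were the highest mice, and the range of 4.70 corresponds to 25.9-fold.

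Reg3b, the pancreatitis-associated protein gene, was read by 2 probe sets. On the one with the higher mean, wildtype values were 12.60, 15.47, 13.19, 15.34 and 15.05, and heterozygous values 15.16, 15.38, 15.05, 14.87 and 13.88, a range of 2.86 (7.28-fold). On the second, an _s_at probe set, they were 10.46, 14.62, 10.77, 14.32 and 13.49 in wildtype and 13.53, 14.34, 13.46, 12.92 and 11.26 in heterozygous islets, a range of 4.16 (17.9-fold). Both probe sets placed the 10 mice in the same order, with wildtype replicates 1 and 3 and heterozygous replicate 5 at the bottom, and they differed in the size of the spread.

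Reg3d, related to the islet neogenesis associated protein, had wildtype values of 12.55, 14.19, 12.44, 13.93 and 13.37 and heterozygous values of 13.63, 13.81, 13.92, 13.34 and 12.21. Here heterozygous replicate 5 was the lowest mouse, just below wildtype replicates 3 and 1, and the range was 1.98 (3.96-fold).

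Reg3g, the antibacterial lectin gene, had the widest range of the family, 5.38 or 41.6-fold, wider than in 99.9% of kept probe sets. Its wildtype values were 7.10, 12.48, 7.12, 10.28 and 10.22, and its heterozygous values 10.25, 10.83, 9.91, 8.38 and 7.20. Wildtype replicate 2 stood alone at the top, and 3 mice, wildtype replicates 1 and 3 and heterozygous replicate 5, lay together near 7. For comparison, the median range over all kept probe sets was 0.80.

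Reg4, better known from gut epithelium, was at background. Its probe set lay between 3.65 and 4.08, above 4 in heterozygous replicate 1 only, and was not kept.

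**Figure D1:**
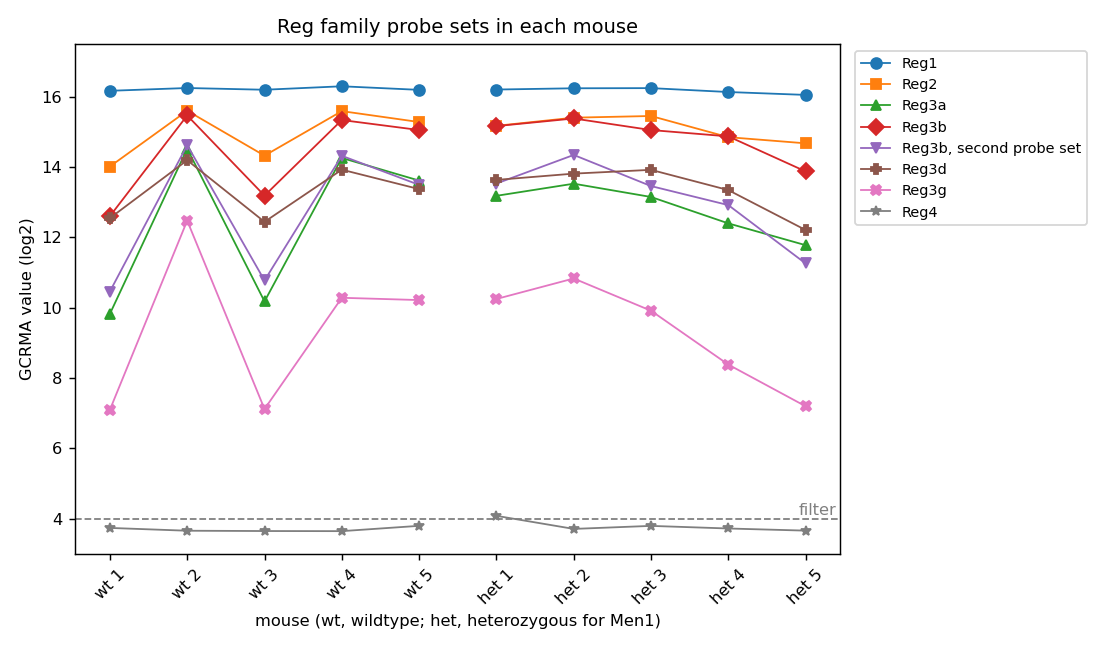
GCRMA value (log2, vertical axis) of the 8 Reg probe sets in each of the 10 mice (horizontal axis); lines join the values of a probe set within a genotype and carry no order, and the dashed line is the filter value of 4. Reg2 and the Reg3 genes dip together in wildtype replicates 1 and 3 and heterozygous replicate 5, while Reg1 stays between 16.05 and 16.30.

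The members other than Reg1 and Reg4 moved together from mouse to mouse. Over the 10 mice, the 10 pairs among Reg2, Reg3a, Reg3b, Reg3d and Reg3g had Pearson r from 0.875 to 0.979 and Spearman rho from 0.842 to 1.0, taking for each gene the probe set with the higher mean. Reg2 and Reg3a were closest by r, at 0.979. Reg3b and Reg3g placed all 10 mice in an identical order (rho = 1.0, r = 0.877). When the 2 mice farthest from the median of the first gene of a pair were left out, which for 9 of these 10 pairs were wildtype replicates 1 and 3, r still lay between 0.851 and 0.960. With the mean of each genotype subtracted, the lowest r was 0.874, so the shared variation is present within genotypes.

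Reg1 followed the others less closely, with r from 0.509 with Reg3b to 0.776 with Reg3d and rho from 0.709 to 0.903. Reg4, at background, had r between 0.034 and 0.22 with the kept members. The Reg3 genes resemble one another in sequence, the _s_at suffix of 1 Reg3b probe set marks probes shared between transcripts, and cross-hybridisation between members was not tested. The fitted sizes of the swings differed. Per log2 unit of Reg3b, on its probe set with the higher mean, the change was 1.59 in Reg3g, 1.54 in Reg3a, 0.61 in Reg3d, 0.52 in Reg2 and 0.035 in Reg1. That Reg3b probe set ranged over 2.86 and the second over 4.16. Slopes on the second were not fitted, so these sizes hold for the first probe set only.

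**Figure D2:**
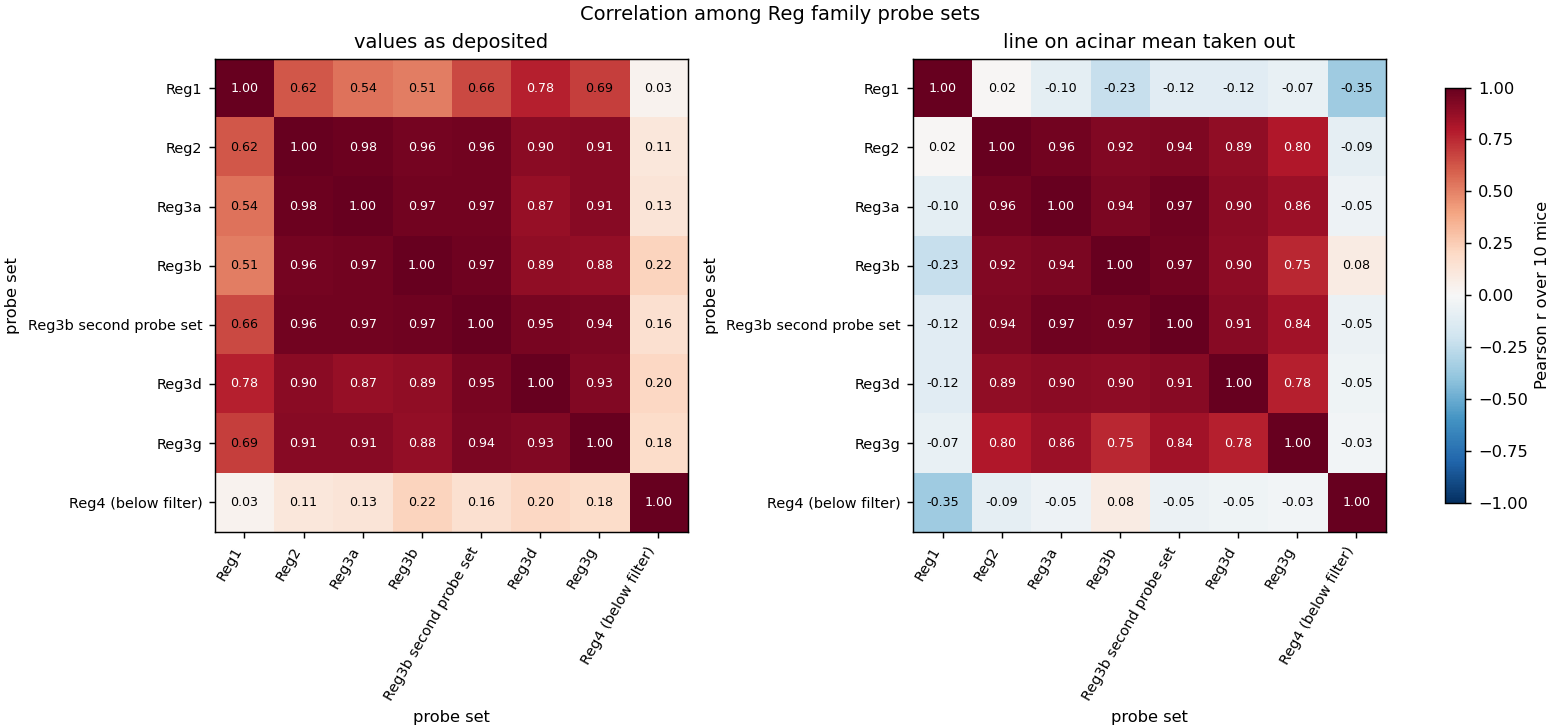
Pearson r over 10 mice between Reg probe sets (both axes), with the deposited values on the left and, on the right, after a straight line on the mean of 29 acinar genes was taken out of each. The block of Reg2 and the Reg3 genes stays at 0.75 or above on the right, while the row of Reg1 falls to between -0.35 and 0.02.

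Whether loss of 1 copy of Men1 alters Reg expression was asked by comparing the genotypes. No Reg gene passed the test, and in every member the heterozygous and wildtype values overlapped. The heterozygous mean of Reg3b was 14.87 ± 0.59 and its wildtype mean 14.33 ± 1.33 (SD, n = 5 each), a difference of 0.54 (SE 0.56) with a 95% interval of -0.71 to 1.78. Its second probe set differed by 0.37 (SE 0.88). Reg3a stood at 12.81 ± 0.71 and 12.48 ± 2.29, a difference of 0.33 with an interval of -1.71 to 2.36. Reg3g stood at 9.31 ± 1.49 and 9.44 ± 2.31 (-0.12, interval -2.46 to 2.21). These intervals reach more than 4-fold in either direction for Reg3g and do not show equal levels.

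The remaining members had narrower intervals. For Reg2 the heterozygous mean was 15.11 ± 0.34 and the wildtype mean 14.96 ± 0.74 (0.15, 95% interval -0.56 to 0.86). Reg3d stood at 13.38 ± 0.69 and 13.30 ± 0.79 (0.088, -0.82 to 0.99). Reg1 stood at 16.17 ± 0.082 and 16.22 ± 0.051 (-0.046, -0.22 to 0.13), an interval narrowed by its small spread. By limma with Benjamini-Hochberg adjustment over all probe sets, 0 of 7 Reg probe sets were called (adjusted p = 0.9999 each), where 0.0% of all 18567 were called. At an unadjusted p under 0.05 there were 0 Reg probe sets against 4.09% of all probe sets, and the groups did not overlap in 0 of 7 against 0.7% of all. Exact two-sided permutation tests over all assignments of mice to genotypes gave p from 0.349 for Reg1 to 0.921 for Reg3g, where the smallest possible p is 0.00794.

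For Reg2, Reg3a, Reg3d, Reg3g and the second Reg3b probe set, the sign of the difference turned when single mice were left out, while Reg1 (-0.064 to -0.016) and the first Reg3b probe set (0.11 to 0.82) kept theirs. Without wildtype replicate 1 the difference was -0.34 for Reg3a, -0.088 for Reg2 and -0.099 for Reg3d, and without wildtype replicate 3 it was -0.25, -0.011 and -0.13. For Reg3g it was 0.64 without wildtype replicate 2 and 0.41 without heterozygous replicate 5. The spread itself was wider among wildtype mice for Reg3a, with a range of 4.70 against 1.75 in heterozygous mice, and for Reg3g, at 5.38 against 3.63. This difference in spread was not tested.

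**Figure D3:**
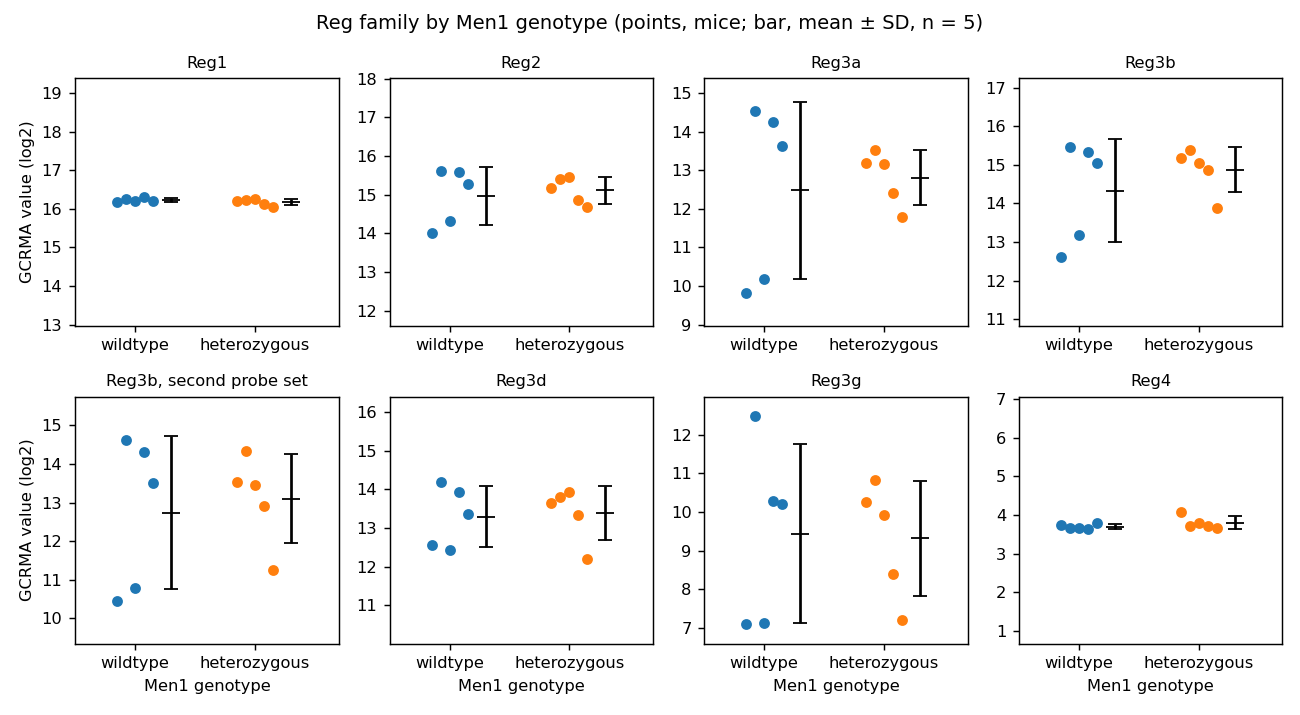
GCRMA value (log2, vertical axis) of each Reg probe set in wildtype and heterozygous islets; points are mice, bars the mean ± SD (n = 5), and all panels span the same number of log2 units. The groups overlap in all 8 panels, and wildtype replicates 1 and 3 give the low pairs of points in Reg2, Reg3a, Reg3b and Reg3d.

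Reg genes were then set against the acinar content of the preparations, measured as the mean of 29 acinar genes without any Reg gene. All 6 kept Reg genes had a positive r with it, and that of Reg3d passed the test. The relation of these genes to acinar and immune transcripts was also in view when the family was chosen, and the lists were chosen with earlier results known. The p-values and statements that a relation passed, here and for every list below, therefore describe the relations and are no independent support for them. The relation was closest for Reg3d, with r = 0.923 (permutation p = 1e-05, the smallest that the permutations can give) and rho = 0.939. Its adjusted p over the 60 relations of 6 Reg genes with 10 gene lists was 0.00060 for r and 0.0132 for rho. It was the 1 relation of the 60 that passed by either measure. Without wildtype replicate 3 and heterozygous replicate 5, the 2 mice farthest from the median acinar mean, r was 0.913, and leaving out any 1 mouse gave 0.916 to 0.955.

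Reg1 followed at r = 0.864 (rho = 0.830, permutation adjusted p = 0.0508 and 0.0894) and Reg3g at 0.819 (rho = 0.770, permutation adjusted p = 0.0508 and 0.110). Both were just outside the threshold by r and farther from it by rho. Without the same 2 mice, r was 0.819 for Reg1 and 0.848 for Reg3g. Leaving out any 1 mouse gave 0.670 to 0.916 for Reg1 and 0.795 to 0.886 for Reg3g. The lowest value of Reg1 came without heterozygous replicate 5 (permutation adjusted p = 0.286) and its highest without wildtype replicate 3 (permutation adjusted p = 0.0237). After a further quantile normalization the value for Reg1 fell to -0.041, while those of Reg3d and Reg3g were 0.929 and 0.815. With the genotype means subtracted, Reg1 and Reg3g passed as well (permutation adjusted p = 0.0144 and 0.0434). Reg2, Reg3b and Reg3a had r of 0.715, 0.687 and 0.668 (rho 0.879, 0.770 and 0.709), with permutation adjusted p of 0.131, 0.162 and 0.167 for r and 0.0522, 0.110 and 0.161 for rho. Without wildtype replicate 3 and heterozygous replicate 5 their r was 0.893, 0.754 and 0.800.

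The acinar mean itself spanned 0.91, from 13.96 in heterozygous replicate 5 to 14.88 in heterozygous replicate 3, with wildtype replicate 3 at 14.34 and wildtype replicate 1 at 14.50. Many acinar genes lie at the top of the scale: the colipase gene Clps and the elastase gene Cela3b, the 2 highest, had ranges of 0.086 and 0.098. The 21 acinar genes with a mean of 14 or more had a median range of 0.38, and the 8 below 14 one of 2.47. The mean of those 8 genes gave r of 0.920 with Reg3d, 0.877 with Reg1 and 0.838 with Reg3g, and all 3 passed (permutation adjusted p = 0.0060, 0.0336 and 0.0336). Reg3g and Reg3a varied more than each of the 29 acinar genes, and Reg3b more than all but Ctrc, which encodes chymotrypsin C and had a range of 4.19.

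Single acinar genes differed in how closely they tracked the family. For Reg1, 26 of 29 acinar genes had r above 0.7, where 3.24% of probe sets outside the family did, and for Reg3d it was 25 of 29 against 5.6%. Reg1 spanned only 0.25, and its r with the acinar mean was -0.041 after a further quantile normalization, so its count holds for the values as deposited. For Reg3g the count was 13 of 29 against 4.36%, for Reg2 9 of 29 against 3.1%, for Reg3b 6 of 29 against 3.01%, and for Reg3a 5 of 29 against 2.38%. Gatm, which encodes the first enzyme of creatine synthesis, was the acinar gene nearest to Reg3a (r = 0.877), and Bhlha15, a transcription factor of secretory cells, had r of 0.951 with Reg3d and 0.894 with Reg3g. Ptf1a, the acinar master factor, and its partner Rbpjl had r of 0.507 and 0.273 with Reg3b and of 0.819 and 0.553 with Reg3d. In the genotype comparison 10 of the 29 acinar genes were higher and 19 lower with 0 called by limma and a median difference of -0.021, against a median of 0.022 over all probe sets. Of all 18567 kept probe sets 10476 were higher and 8091 lower, which is the background for this count and for those of the lists below. The acinar genes with the smallest p were Ctrc (-0.63, SE 0.61) and Rbpjl (-0.28, SE 0.40), followed by the elastase gene Cela2a (-0.044, SE 0.075) and Cuzd1 (0.15, SE 0.26).

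**Figure D4:**
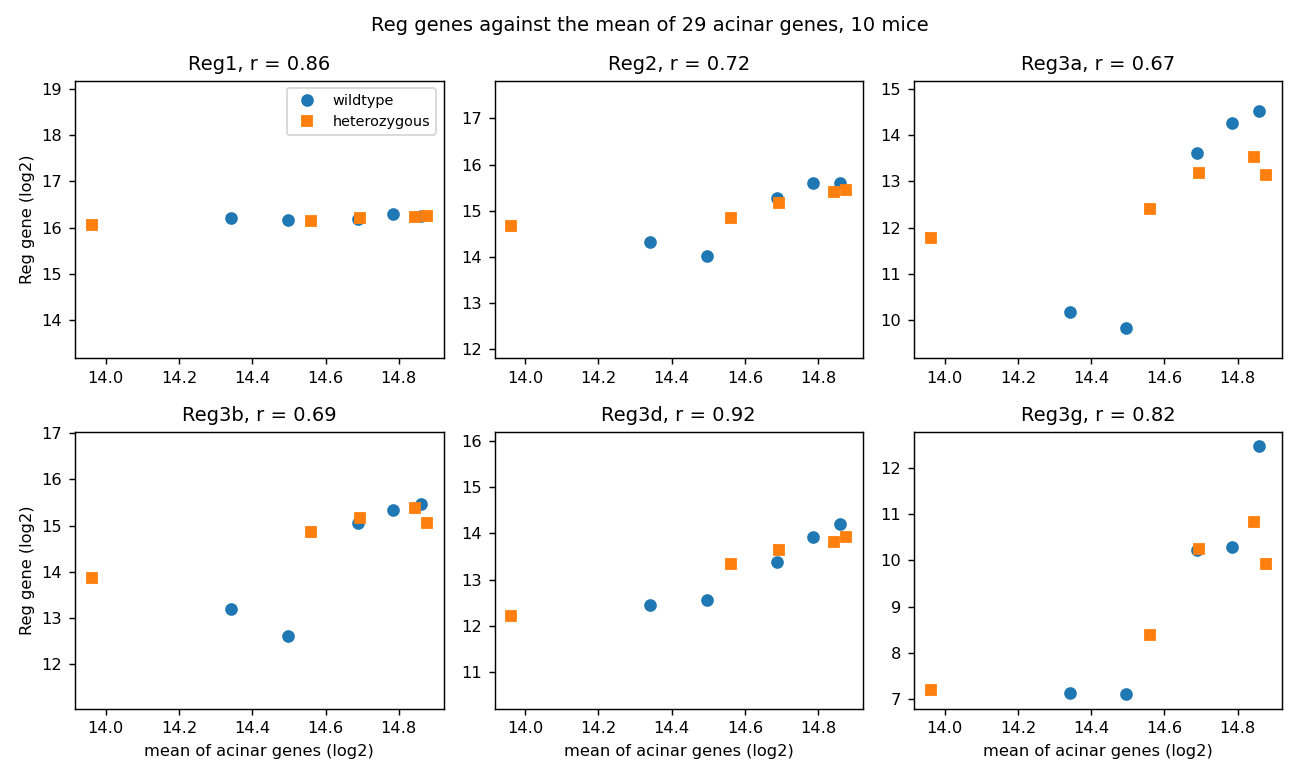
Each kept Reg gene (log2, vertical axis, all panels spanning the same number of log2 units) against the mean of 29 acinar genes (log2, horizontal axis) in 10 mice, wildtype as circles and heterozygous as squares. Reg3d falls along 1 line (r = 0.92), Reg1 is nearly flat, and in Reg3a and Reg3b wildtype replicates 1 and 3 lie below heterozygous replicate 5 although its acinar mean is lower.

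Taking out a straight line on the acinar mean, a step added after the data were seen, left different correlations. The 10 pairs among Reg2 and the Reg3 genes kept r between 0.753 and 0.964, while those of Reg1 with the other 5 were between -0.23 and 0.015. Since Reg1 spans 0.25 log2 units near the top of the scale, these low values do not show that Reg1 behaves differently. The fitted slope on the acinar mean was 5.25 log2 units per unit for Reg3g, 3.75 for Reg3a, 2.43 for Reg3b, 2.26 for Reg3d, 1.37 for Reg2 and 0.21 for Reg1. In heterozygous replicate 5, with the lowest acinar mean, Reg3a stood at 11.78, above the 9.83 of wildtype replicate 1 and the 10.18 of wildtype replicate 3.

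Islet endocrine genes went the other way. The mean of 16 endocrine genes had r of -0.817 with Reg3d (rho -0.806, permutation adjusted p = 0.0742 and 0.105), -0.714 with Reg3g and -0.531 with Reg1, and for each of Reg2, Reg3a, Reg3b, Reg3d and Reg3g all 16 genes had a negative r. The share of all probe sets with a negative r was not counted. For Reg3d, r was below -0.7 in 8 of 16, against 6.06% of probe sets outside the family. It was so in 3 of 16 for Reg3g against 2.76%, in 2 for Reg2 against 1.49%, in 1 for Reg3b against 1.25%, in 0 for Reg3a against 1.25%, and in 1 for Reg1 against 7.1%. The hormone genes Gcg and Iapp, the 2 highest of the list, had r of -0.59 and -0.63 with Reg3d. By genotype 6 of the 16 were higher and 10 lower, with 0 called by limma, and Gcg (-0.085, SE 0.078), Isl1 (-0.15, SE 0.18), G6pc2 (-0.18, SE 0.24) and Ins2 (-0.047, SE 0.075) had the smallest p. None of the 6 relations with the list mean passed, and without wildtype replicate 3 and heterozygous replicate 5 the value for Reg3d was -0.574. That relation passed without heterozygous replicate 1 (r = -0.907, permutation adjusted p = 0.0183) and after quantile normalization (r = -0.871, permutation adjusted p = 0.0192). The acinar and endocrine means were themselves related at r = -0.795 (permutation p = 0.0038; rho = -0.855, p = 0.0030), which became -0.579 without the same 2 mice. With a straight line on the endocrine mean taken out, a step added after the data were seen, r with the acinar mean was 0.783 for Reg3d, 0.593 for Reg3g and 0.860 for Reg1, and 0.433, 0.386 and 0.345 for Reg2, Reg3b and Reg3a.

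Of immune transcripts, no list mean passed the test against a Reg gene. The mean of the 7 lymphocyte genes kept, of 32 listed, was 7.09 in heterozygous replicate 2 and 6.51 in heterozygous replicate 5 and between 4.71 and 5.61 in the other 8 mice. Reg3b was near its highest value in the first of these mice, at 15.38, and among its lowest in the second, at 13.88. The lymphocyte mean had r of 0.091 with Reg3b, 0.0074 with Reg3g and -0.31 with Reg1 (rho 0.0061, 0.0061 and -0.28), with permutation adjusted p of 0.926, 0.998 and 0.638 for r and 1.0, 1.0 and 0.657 for rho. T cell genes such as Cd3e and Cd4 were below the filter. Without heterozygous replicates 2 and 5 the r was 0.078, 0.119 and -0.16. The leucocyte genes Ptprc and Coro1a, the 2 highest of the list, had r of -0.0099 and 0.17 with Reg3b. By genotype all 7 were higher, where 10476 of all 18567 kept probe sets were, with 0 called by limma and a median of 0.77. The list mean was 4.71, 4.82 and 4.77 in heterozygous replicates 1, 3 and 4, below the wildtype mean of 4.96. The higher heterozygous mean of the list therefore rested on replicates 2 and 5. The B cell genes Cd22 (0.90, SE 0.46), Ms4a1 (1.03, SE 0.66) and Ighm (0.95, SE 0.88) and Coro1a (0.77, SE 0.50) had the smallest p.

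The 15 myeloid genes include macrophage and antigen presentation markers such as H2-Aa and Ctss. Their r with Reg3b was above 0.7 in 0, against 3.01% of probe sets outside the family. It was below 0 in 14, with a median of -0.28, but the share of all probe sets below 0 was not counted. The myeloid mean had r from -0.27 with Reg3a to -0.45 with Reg3d, and the permutation adjusted p of the latter was 0.430 (rho -0.479, adjusted p = 0.385). Interferon-stimulated genes, 12 of them, had mean values related to Reg genes at r from -0.31 to -0.041. Rsad2 and Irf1, the 2 highest, had r of 0.27 and -0.25 with Reg3b. By genotype 4 of these 12 were higher and 8 lower, with 0 called by limma and a median of -0.14, and Ifit2 (-0.52, SE 0.22), Iigp1 (-0.34, SE 0.20), Ifit3 (-0.21, SE 0.13) and Cxcl10 (0.10, SE 0.10) had the smallest p. In the genotype comparison 4 of 15 myeloid genes were higher and 11 lower, with 0 called by limma and a median of -0.10. The mannose receptor gene Mrc1 (-0.93, SE 0.31) and the endotoxin co-receptor gene Cd14 (-0.64, SE 0.20) had the smallest p, followed by the macrophage gene Adgre1 (-0.57, SE 0.21) and the Fc receptor chain gene Fcer1g (-0.11, SE 0.087).

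Epithelial genes of other kinds were set beside the family, since Reg3g and Reg4 are best known from gut epithelium. Of 23 gut epithelium genes 3 were kept, Vil1, Olfm4 and Fabp1, and Cdx2, Muc2 and Lgr5 were below the filter. The gut mean reached 10.48 in heterozygous replicate 2, where Fabp1 was high, and had r of -0.032 with Reg3g and 0.069 with Reg3b (rho -0.176 each; permutation adjusted p = 0.983 and 0.926 for r and 0.808 each for rho). The mean of 10 duct and epithelium genes had r of 0.752 with Reg1 and from 0.33 to 0.60 with the other members, and none of these relations passed (lowest permutation adjusted p = 0.123, rho with Reg1 0.636, adjusted p = 0.218). Without wildtype replicate 2 and heterozygous replicate 5, the 2 mice farthest from the median duct mean, r was 0.525 with Reg1. With the other members it was then 0.040 (Reg3g) to 0.167 (Reg3d). Members of the duct list differed: 6 of 10 had a positive r with Reg3d. The trefoil factor gene Tff2 and the keratin gene Krt8, the 2 highest, had r of 0.872 and 0.585 with Reg3d, the mucin gene Muc1 0.951, the tight junction gene Cldn4 -0.557 and the keratin gene Krt7 -0.860. By genotype 3 of the 10 were higher and 7 lower, with 0 called by limma and a median of -0.074. The smallest p belonged to the water channel gene Aqp1 (-0.63, SE 0.27), Krt19 (-0.62, SE 0.29), Epcam (-0.14, SE 0.15) and Krt18 (-0.17, SE 0.19). Of the gut genes, Fabp1 differed by 2.83 (SE 1.31), Vil1 by 0.40 (SE 0.23) and Olfm4 by 0.089 (SE 0.31), with 0 called by limma.

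The pathway known to induce Reg3 genes had no relation to them that passed. Of 53 genes of STAT3 signalling and the acute phase 35 were kept, and the cytokine genes Il6, Lif, Osm and Tnf were below the filter. Their mean had r from 0.19 with Reg3a to 0.61 with Reg1 (rho 0.224 and 0.636), with permutation adjusted p of 0.770 and 0.199 for r and 0.802 and 0.218 for rho. These values depended on 2 mice, wildtype replicates 2 and 3, the farthest from the median of this list mean. Without them r was 0.804 for Reg3d, 0.718 for Reg1, 0.653 for Reg2, 0.644 for Reg3g, 0.611 for Reg3b and 0.542 for Reg3a. Stat3 itself spanned 0.41 and had r = 0.26 with Reg3b, and its feedback inhibitor Socs3 spanned 1.23 with r = 0.07. The acute phase genes Saa3 and Lcn2 were below the filter. Among the 35, 2 genes, or 5.71%, had r above 0.7 with Reg3b, against 3.01% of all probe sets outside the family. They were Il10rb, a receptor chain used by interleukin-22 (0.78), and the kinase gene Tyk2 (0.71). Over the 35 genes r with Reg3b ran from -0.64 to 0.78, with a median of 0.17. By genotype, 14 of the 35 were higher and 21 lower with 0 called by limma and a median of -0.018. Il6st, the shared receptor chain of interleukin-6 type cytokines, stood at -0.48 (SE 0.22) and Lbp, which binds endotoxin, at -1.03 (SE 0.48), followed by Osmr (-0.37, SE 0.21) and Pim1 (0.27, SE 0.18). The immediate-early genes Fos and Egr1, the 2 highest of the list, had r of 0.85 and 0.83 with Reg1 and 0.53 each with Reg3b.

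Of 13 genes listed for Reg binding and downstream signalling 12 were kept. Extl3 varied by 1.68, from 8.33 to 10.01, and had r of 0.92 with Reg3d, 0.86 with Reg3g and 0.72 with Reg3b. Atf2, a transcription factor gene, and Akt1, a growth signalling kinase gene, were the 2 highest of the list and had r of -0.66 and 0.91 with Reg3d. Ccnd1, which encodes cyclin D1, had r = -0.37. The list mean had r of 0.799 with Reg3d (rho 0.745, permutation adjusted p = 0.0887 and 0.116) and 0.589 with Reg3g. By genotype 5 of the 12 were higher and 7 lower, 0 were called by limma and the median was -0.029. Gper1, an oestrogen receptor gene of the G protein-coupled kind, differed by 0.50 (SE 0.24), Atf2 by 0.16 (SE 0.15), Ccnd1 by -0.15 (SE 0.21) and Extl2 by 0.12 (SE 0.17).

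In a list of 18 acinar stress and metaplasia genes, which includes the chaperone gene Pdia2 and the stress protein gene Clu as its highest members, the mean had r from 0.18 with Reg3a to 0.52 with Reg1. Xbp1, a transcription factor of secretory cells, had r = 0.92 with Reg3b. It was the 1 member of the 18 above 0.7, or 5.56%, against 3.01% of probe sets outside the family. Over the 18 genes r with Reg3b ran from -0.60 to 0.92, with a median of 0.25. By genotype 6 were higher and 12 lower, with 0 called by limma and a median of -0.095. Klf4 (-0.69, SE 0.22), Tgfa (0.46, SE 0.17), Trib3 (0.70, SE 0.30) and Anxa2 (-0.66, SE 0.29) had the smallest p.

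**Figure D5:**
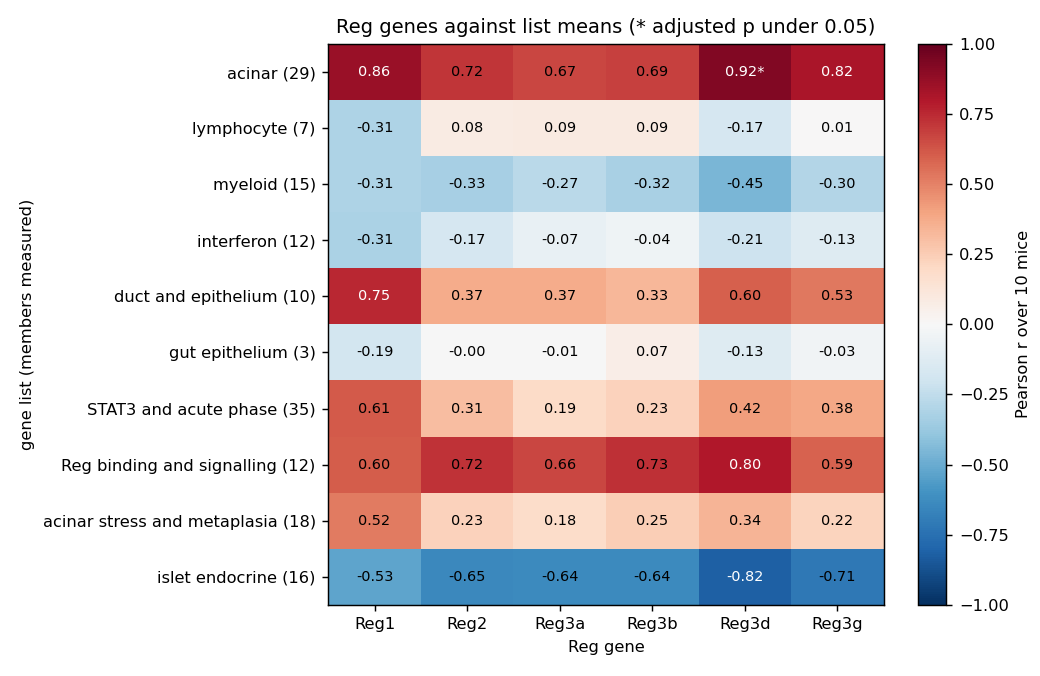
Pearson r over 10 mice between each kept Reg gene (horizontal axis) and the mean of each gene list (vertical axis, with the number of genes kept); the star marks a permutation adjusted p under 0.05. The acinar row is positive throughout (0.67 to 0.92), the islet endocrine row negative (-0.82 to -0.53), and the lymphocyte row lies between -0.31 and 0.09.

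The genes whose pattern over the 10 mice was most like each member were taken from 3160 genes with a range of at least 1 log2 unit, 3 per member by Pearson r. For Reg1 these were Pdia2, a disulfide isomerase of the acinar endoplasmic reticulum, at r = 0.943, the glutathione transferase gene Gstt2 (0.913) and the transcription factor gene Klf15 (0.901). For Reg2 they were Hnmt, which encodes histamine methyltransferase (0.927), Itih4, which encodes a plasma protein of the acute phase (0.899), and Gatm (0.889). For Reg3a they were Sox6 (0.893), Gatm (0.877) and Hnmt (0.871), and for Reg3b Hnmt (0.925), 2210408K08Rik (0.886) and the pyruvate dehydrogenase kinase gene Pdk1 (0.882). For Reg3d they were the mitochondrial carrier gene Slc25a10 (0.971), Kctd14 (0.965) and the GABA receptor gene Gabra4 (0.963). For Reg3g they were Itih4 (0.918), Eif2ak3, which encodes the stress kinase PERK (0.902), and Pdk1 (0.898). Hnmt was named for 3 members, and Itih4, Gatm and Pdk1 for 2 each. Itih4 followed Reg3g from 8.69 and 8.67 in wildtype replicates 1 and 3 to 11.09 in wildtype replicate 2, although heterozygous replicate 3, at 11.07, was its next highest mouse and not that of Reg3g. These genes were picked for the likeness, so no test is attached.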

How the data were processed

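Islet RNA (100 ng per mouse) was amplified over 2 cycles, per the labels' protocols, which shortens transcripts and can enlarge differences between samples. The deposited log2 values come from GCRMA according to the authors, per the submitters' processing notes; it pulls dim probe sets to a common low value. Its version and the scanner are not stated in the labels. That the scale is log2 follows from the range of the deposited numbers.

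Probe sets were named through the platform annotation: 34945 carry 1 symbol, 932 several and 9160 none, after 64 controls were left out. Probe sets passing the filter (above 4 on 5 or more arrays) were fitted with lmFit and eBayes of limma 3.58.1 (R 4.3.3), heterozygous minus wildtype, without covariates, and adjusted over all 18567 by Benjamini-Hochberg at 0.05. The fit was tested on simulated data. Each gene entered a list mean through its brightest probe set. List relations were tested with 100000 two-sided permutations (numpy 2.4.6, scipy 1.17.1) and adjusted over 60 relations. Promoter windows were aligned with Biopython 1.88, and figures drawn with matplotlib 3.10.9 in Python 3.11.15.

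Members and lists were chosen with earlier results of these data known. Named genes were every Reg gene, Men1, the 3 nearest genes per kept member, and in each list the 2 highest members and up to 4 with the smallest p. Ptf1a, Bhlha15, Krt7, Cldn4, Muc1, Xbp1, Il10rb, Tyk2, Stat3, Socs3, Extl3 and the genes named as below the filter were named after their values were seen. Alternatives were other filters, normalizations and priors, covariates, the replicate number as a block, and leaving out each mouse. The replicate numbers were not taken to pair the mice in the main fit. Deviations of same-numbered mice correlated at -0.28 to 0.11. Mice of different numbers were not compared in this way, so a pairing by litter was not settled. The number of arrays limits the precision.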

Additional observations from a re-analysis of the deposited data

Results flagged for a closer look

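None of the 16 groups of 5 Reg values had a mouse set apart from the rest of its genotype by Dixon's criterion, which chance meets in about 1 of 20 groups. Of the 10 groups of 5 list means checked, 3 did. The 10 lists in 2 genotypes give more groups than these, and the rest were not checked. The lymphocyte mean of wildtype replicate 5, at 5.61, stood above the other wildtype mice (next 4.90), and Reg3b in that mouse was 15.05. The myeloid mean of wildtype replicate 3, at 7.76, was the highest of the wildtype mice (next 7.51), and this was 1 of the 2 wildtype mice with low Reg3 values. The other of these 2, wildtype replicate 1, had the lowest myeloid mean of the wildtype mice, 7.46. The gut epithelium mean of wildtype replicate 2, at 6.74, was the lowest of the wildtype mice (next 7.38), and this mouse had the highest Reg3g value, 12.48.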

How the results depend on the processing

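The count of Reg probe sets called stayed at 0, as did that of all probe sets, under every alternative run. With the replicate number as a block, 0 Reg probe sets and 0 of all probe sets were called, and the difference for Reg3b was 0.54 (SE 0.55); the block changed no call. Signs of uncalled differences moved when single mice were left out: Reg2 ranged from -0.088 to 0.31, Reg3a from -0.34 to 0.84, the second Reg3b probe set from -0.20 to 0.84, Reg3d from -0.13 to 0.38 and Reg3g from -0.71 to 0.64. Reg3g also turned to 0.12 with the acinar mean as a covariate. The cause was not tested. The median r among the 6 kept Reg genes was 0.885 and ranged from 0.869 to 0.923 without single mice, with 0.905 after genotype means were subtracted, 0.870 after quantile normalization and 0.799 with the acinar mean taken out.

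For the list relations, passing is a description in this section too, and no independent support. The number of the 60 list relations that passed was 1, and it was 3 with genotype means subtracted, 3 with list members under a mean of 14, 4 after quantile normalization and 1 to 4 without single mice. Heterozygous replicate 5 moved it to 4, and wildtype replicates 1, 2 and 3 and heterozygous replicate 1 each to 2. The relation of Reg3d with the acinar mean passed in all of them. The others that passed were Reg1 and Reg3g with the acinar mean (genotype means subtracted; members under 14), Reg3g with the acinar mean and Reg3d with the endocrine and Reg binding means (quantile normalization), Reg2, Reg3a and Reg3g with the acinar mean (without heterozygous replicate 5), Reg3g with it (without wildtype replicates 1 or 2), Reg1 with it (without wildtype replicate 3) and Reg3d with the endocrine mean (without heterozygous replicate 1). After quantile normalization r of Reg1 turned to -0.041 with the acinar, 0.11 with the endocrine, 0.34 with the lymphocyte and 0.27 with the myeloid mean, and the cause was not tested. The lymphocyte r changed sign without single mice, from -0.71 to 0.13 for Reg1, -0.15 to 0.23 for Reg2, -0.086 to 0.22 for Reg3a, -0.17 to 0.26 for Reg3b, -0.53 to 0.17 for Reg3d and -0.31 to 0.28 for Reg3g, and was -0.018 for Reg3b with genotype means subtracted. Differences near the top of the scale can be compressed, which was not tested here, and 5 mice per genotype leave wide intervals for the Reg3 genes.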
